A study of Saccharomyces cerevisiae with 9 samples.

Results

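The comparison described here sets a budding yeast strain that lacks both cytidylyl transferase genes of the Kennedy pathway, ect1Δ pct1Δ, against its wild type (WT). Its members are 6 of the 9 libraries of the series, the 3 labelled ect1Δ pct1Δ and the 3 labelled WT. The 3 remaining libraries come from cpt1Δ ept1Δ, a strain labelled as lacking the transferases of the next step. They enter the same fit and are drawn on only where a difference between the strains is given. All strains are Saccharomyces cerevisiae of the prototrophic CEN.PK background, grown to log phase in minimal synthetic medium with 2% glucose, and polyadenylated RNA was sequenced. The labels give no other allele, no marker used for the deletions and no treatment that differs between the groups. They do not say whether the replicates were separate cultures or clones, so every p-value reflects the scatter among 3 libraries a group, and that scatter could be technical. The genotype labels of replicates 2 and 3 write the second gene as pct2 and pct3, which were read as running numbers, and the levels of ECT1 and PCT1 below bear on that reading. All 7122 genes of the deposited table were considered, 6083 passed a filter on low counts, and 6081 of these remain once ECT1 and PCT1 are set aside.

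Phosphatidylcholine and phosphatidylethanolamine are the main phospholipids of yeast membranes, and the cell makes them by separate routes. In the Kennedy pathway, choline or ethanolamine is phosphorylated, activated with CTP to CDP-choline by Pct1 or to CDP-ethanolamine by Ect1, and joined to diacylglycerol by Cpt1 or Ept1. In the CDP-diacylglycerol route, phosphatidate is activated with CTP, turned into phosphatidylserine by Cho1, decarboxylated to phosphatidylethanolamine by Psd1 and Psd2, and methylated to phosphatidylcholine by Cho2 and Opi3. Cells without the Kennedy pathway depend on the CDP-diacylglycerol route, whose genes carry binding sites for the activator Ino2-Ino4 and are held down by Opi1 when phosphatidate is scarce.

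ECT1 and PCT1 were close to absent from the 3 libraries labelled as lacking them. ECT1 (YGR007W, chromosome VII, 506969 to 507940, build R64) had 2, 0 and 1 counts in ect1Δ pct1Δ, against 1162, 645 and 692 counts in WT. Scaled for library size, the summed counts of the deletion libraries were 0.118% of WT, with an exact Clopper-Pearson 95% interval of 0.0243 to 0.345%. PCT1 (YGR202C, chromosome VII, 903474 to 904748) had 6, 11 and 5 counts in ect1Δ pct1Δ, against 1503, 888 and 807 counts in WT, or 0.675% (0.423 to 1.02%). These intervals cover counting error only. Both genes were at WT level in cpt1Δ ept1Δ, with log2 fold changes over WT of -0.01 ± 0.07 for ECT1 and -0.02 ± 0.06 for PCT1. The libraries held 5669951 to 11793688 counts in ect1Δ pct1Δ and 6141426 to 10948488 in WT. In a principal component analysis of all 9 libraries, ect1Δ pct1Δ replicate 2 and WT replicate 3 stood apart on the first component, which did not separate the groups. Calls that end, and counts that move by over 1.5 times, when single libraries are left out are named beside the results.

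Few transcripts changed in ect1Δ pct1Δ, most of them by little, and none encodes a step of phospholipid synthesis. The arsenic resistance genes ARR1, ARR2 and ARR3, the zinc transporter ZRT1, the hexose transporter HXT4, the drug exporter PDR5, the ER chaperone KAR2 and URA1 of pyrimidine synthesis fell. Single genes of other functions rose, among them IMD2 of guanine nucleotide synthesis, FAA1 of fatty acid activation, EEB1 of ester synthesis, the ceramidase YPC1, the cell wall protein CWP2 and the membrane proteins HSP30 and YRO2, while most members of their lists were not called. Levels are given as CPM, which are counts scaled to the effective library size, or as FPKM, which also divides by gene length and so allows genes to be compared. A gene was called where edgeR's quasi-likelihood test gave a Benjamini-Hochberg adjusted p below 0.05 over all genes tested. Beyond the deleted genes, 26 of 6081 genes were called, or 0.428%, with 16 higher (0.263%) and 10 lower (0.164%). The count depended on single libraries: without WT replicate 1, 15 genes were called (9 higher, 6 lower), and without WT replicate 3, 38 were (25 higher, 13 lower). The number of lower genes was also 6 without ect1Δ pct1Δ replicate 3, without cpt1Δ ept1Δ replicate 2, or with the 6 libraries of this comparison alone.

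Most of the 26 changes were small: 12 were under 1.5-fold, 8 were 1.5 to 2-fold and 6 reached 2-fold. For each of the 26, every ect1Δ pct1Δ library lay outside the range of the 3 WT libraries, which was so for 10.6% of all genes tested (5.92% higher and 4.64% lower). An unadjusted p below 0.05 was found for 400 genes, or 6.58%. A two-sided exact permutation test of 1 gene with groups of this size can reach at best p = 0.1, and the tests therefore come from the model fitted to all genes. The rest of the transcriptome lay close to WT: 76.7% of the genes tested were within 1.1-fold and 98.3% within 1.5-fold. A further 10 genes differed by at least 2-fold without being called. Precision followed abundance, since the median standard error of a log2 fold change was 0.32 for genes under 5 FPKM in WT, where no gene was called, and 0.06 above 300 FPKM. The median log2 fold change of every nuclear chromosome lay between -0.014 and 0.014, so no chromosome stood apart as a whole. In such bulk samples, fewer cells that express a gene and less RNA of it per cell cannot be told apart.

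**Figure D1:**
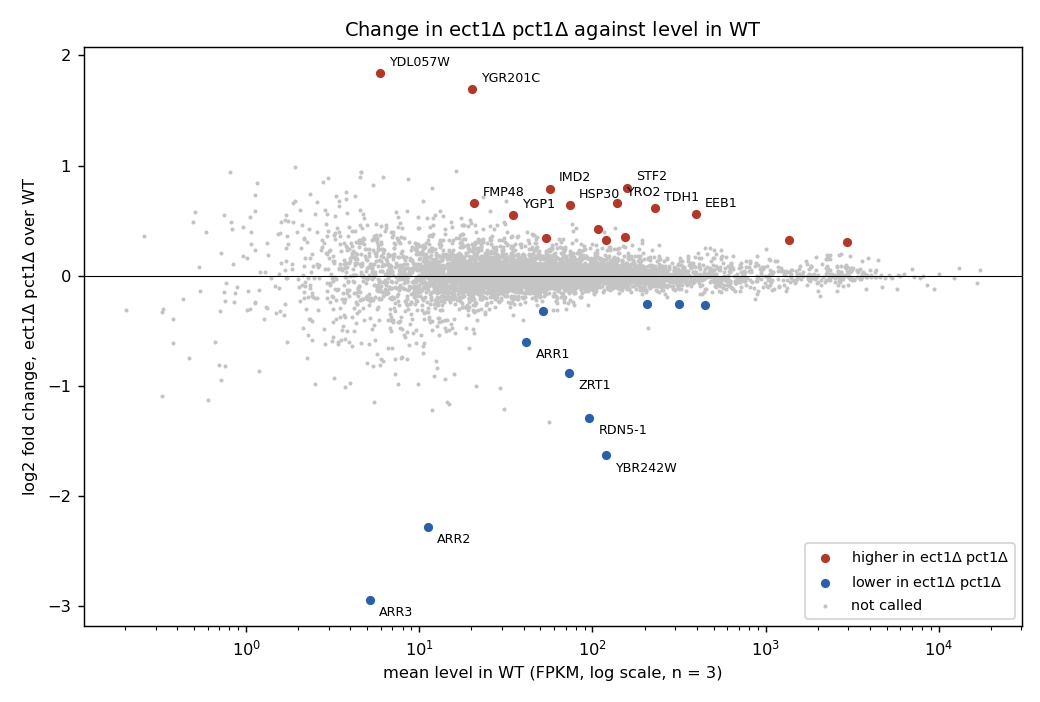
Each point is a gene, with the mean FPKM of the 3 WT libraries on a log axis and the log2 fold change of ect1Δ pct1Δ over WT, fitted to 3 libraries of each, on the linear axis; the deleted genes are left out. The 16 genes called higher are red, the 10 called lower are blue, and 98.3% of all genes tested lie within 1.5-fold.

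**Figure D2:**
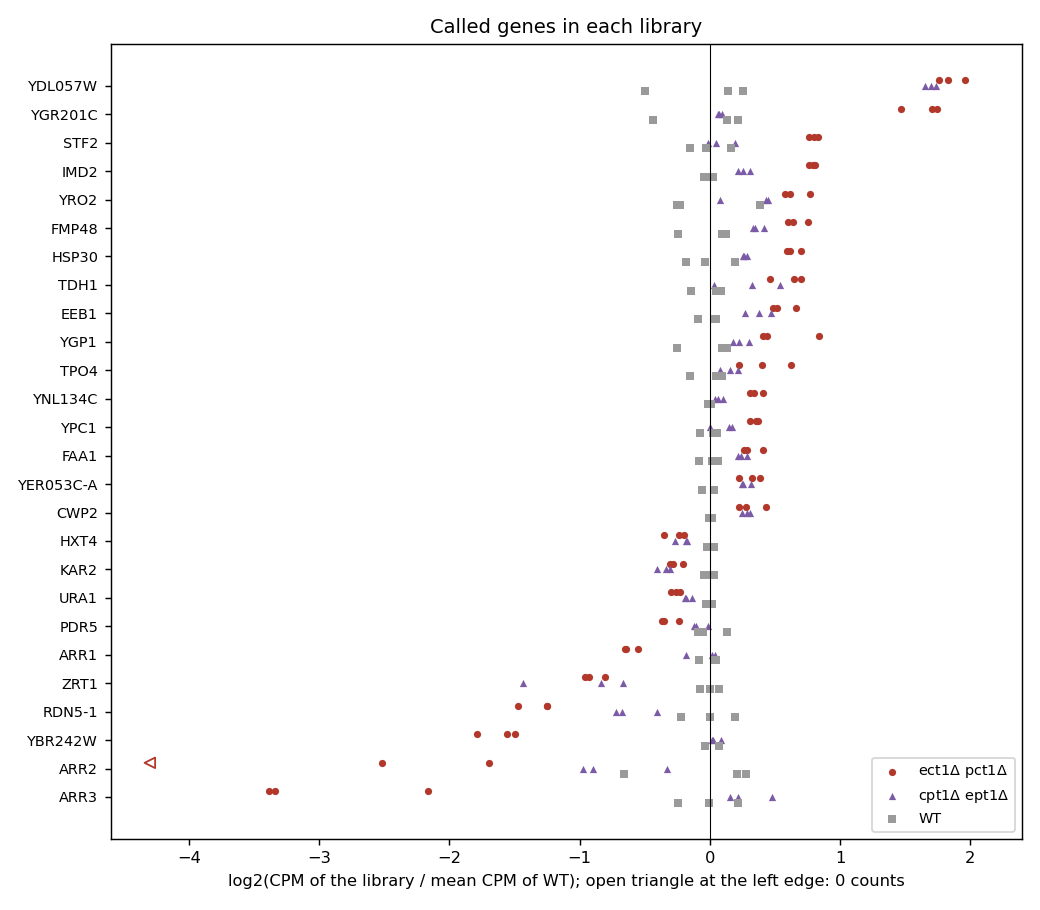
For each of the 26 called genes, the log2 ratio of a library's CPM to the mean CPM of WT is drawn for the 3 ect1Δ pct1Δ libraries (circles), the 3 cpt1Δ ept1Δ libraries (triangles) and the 3 WT libraries (squares). No circle falls within the range of the squares of its gene, and ARR2 had 0 counts in 1 ect1Δ pct1Δ library.

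At each deleted locus, the adjacent gene on one side was called higher. YGR201C, a gene of unknown function, lies 276 bases downstream of PCT1 on the same strand (chromosome VII, 902520 to 903197). Its level was 37.9, 45.9 and 44.7 CPM in ect1Δ pct1Δ, against 10.2, 15.1 and 15.9 CPM in WT. The lowest deletion library was thus far above the highest WT library, and the log2 fold change was 1.69 ± 0.14 (SE, edgeR, adjusted p = 1.15e-06). In cpt1Δ ept1Δ, where PCT1 is intact, YGR201C had 14.4, 14.6 and 14.4 CPM, within the WT range, and the strains differed by 1.57 ± 0.14 (edgeR, adjusted p = 1.27e-06). The stretch between the end of PCT1 and the start of YGR201C is shown because it joins the deleted gene to the gene that rose. It is printed on the coding strand from RefSeq build R64 (VII:903198-903473, minus strand), with both matches to the Msn2 motif AGGGG, which read CCCCT here, in capitals.
YGR201C upstream: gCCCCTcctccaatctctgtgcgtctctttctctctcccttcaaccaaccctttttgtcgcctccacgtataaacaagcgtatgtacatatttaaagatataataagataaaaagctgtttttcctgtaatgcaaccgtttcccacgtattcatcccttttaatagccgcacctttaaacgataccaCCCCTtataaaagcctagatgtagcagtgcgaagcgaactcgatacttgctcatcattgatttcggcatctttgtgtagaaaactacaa

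STF2, which encodes a protein that stabilises the inhibited ATP synthase and is linked to desiccation tolerance, lies 169 bases from ECT1 in convergent orientation (chromosome VII, 508110 to 508364). It had 68.5, 72.2 and 70.6 CPM in ect1Δ pct1Δ, against 39.7, 45.4 and 36.5 CPM in WT. The groups did not overlap, and the log2 fold change was 0.80 ± 0.09 (edgeR, adjusted p = 2.90e-05). In cpt1Δ ept1Δ the gene stood at 42.0, 40.2 and 46.3 CPM, and the strains differed by 0.72 ± 0.08 (edgeR, adjusted p = 6.05e-05). The other neighbours of the deleted loci were not called. On the far side of ECT1, PRP18, a splicing factor gene 143 bases away, had a log2 fold change of -0.47 ± 0.18 (edgeR, adjusted p = 0.584). Across PCT1, the phosphatase gene YCH1 had -0.24 ± 0.10 and the folate enzyme gene ADE3 -0.15 ± 0.06, and ELP2, the next gene past YGR201C, had 0.00 ± 0.06. Whether the neighbouring deletions take part in the higher levels of YGR201C and STF2 was not tested.

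Genes listed under a systematic name alone gave the largest positive value and the smallest p. YDL057W (chromosome IV, 351434 to 352420) had 19.9, 22.8 and 20.8 CPM in ect1Δ pct1Δ, against 6.44, 6.98 and 4.15 CPM in WT. That is 3.57-fold, or 1.84 ± 0.16 on the log2 scale (edgeR, adjusted p = 1.36e-06), with no overlap between the groups. YBR242W (chromosome II, 704670 to 705386), whose paralogue is YGL101W, had 29.1, 24.8 and 30.4 CPM in ect1Δ pct1Δ, against 83.4, 83.2 and 90.0 CPM in WT. It fell to 32.4% of WT, a log2 fold change of -1.63 ± 0.08 (edgeR, adjusted p = 4.52e-10), the smallest p of any gene beyond the deleted ones. Its direct neighbours, VVS1 and ALG7, had -0.07 ± 0.10 and -0.10 ± 0.06 and were not called. YER053C-A, a gene without a known function that encodes a very short protein, had 1.24-fold the WT level (edgeR, adjusted p = 0.0163). Its call was lost without ect1Δ pct1Δ replicate 1 or 2 or WT replicate 1 and in the fit to 6 libraries, with an adjusted p of up to 0.142 over the alternatives that lost it.

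The arsenic resistance genes ARR1, ARR2 and ARR3 form a cluster near the right end of chromosome XVI, and all 3 fell. ARR3 (939922 to 941136), the plasma membrane arsenite exporter, had 4, 7 and 8 counts in ect1Δ pct1Δ, against 69, 46 and 32 counts in WT. Scaled for depth this is 13% of WT, with a log2 fold change of -2.94 ± 0.32 (edgeR, adjusted p = 2.98e-05), the largest negative value of any gene tested beyond ECT1 and PCT1. ARR2 (939279 to 939671), the arsenate reductase, had 5, 16 and 0 counts in ect1Δ pct1Δ, against 31, 34 and 31 counts in WT. The fitted log2 fold change was -2.28 ± 0.48 (edgeR, adjusted p = 0.0381). At these counts the call did not survive the removal of ect1Δ pct1Δ replicate 1 or 3, cpt1Δ ept1Δ replicate 2, or WT replicate 2 or 3, nor the fit to 6 libraries or limma, with an adjusted p of up to 0.282 over the alternatives that lost it. ARR1 (938148 to 939032), the transcription activator of the other genes of the cluster, was better measured, with 151, 293 and 135 counts in ect1Δ pct1Δ, against 384, 240 and 227 counts in WT. As CPM these are 23.5, 25.2 and 23.6 CPM in ect1Δ pct1Δ and 34.8, 38.1 and 37.7 CPM in WT, a log2 fold change of -0.60 ± 0.10 (edgeR, adjusted p = 0.0043). The other members of the arsenic list lie elsewhere in the genome and did not pass the test: FPS1, the glycerol channel through which arsenite enters, had a log2 fold change of 0.04 ± 0.06.

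No gene of the cluster was called in cpt1Δ ept1Δ, whose log2 fold changes over WT were 0.29 ± 0.21 for ARR3, -0.62 ± 0.37 for ARR2 and -0.04 ± 0.09 for ARR1. The difference between the strains was -3.23 ± 0.30 for ARR3 (edgeR, adjusted p = 3.65e-06) and -0.57 ± 0.10 for ARR1 (edgeR, adjusted p = 0.00971). For ARR2 it was -1.66 ± 0.49 and did not pass (edgeR, adjusted p = 0.456). ARR2 and ARR3 are transcribed away from each other, so the stretch between their starts holds the promoters of both, and it is shown for that reason. It is the plus strand of RefSeq build R64 (XVI:939672-939921). The capitals mark the only match to the response element reported for Arr1, searched on both strands and chosen after the fall of the cluster was known. Among 5984 windows from 250 bases before to 50 after the start of a protein-coding gene, 2 held these letters (0.0334%), those of ARR2 and ARR3, and they share this 1 site. Since the element was chosen in that way, the share describes letters and is not an independent test of specificity.
ARR2-ARR3 intergenic: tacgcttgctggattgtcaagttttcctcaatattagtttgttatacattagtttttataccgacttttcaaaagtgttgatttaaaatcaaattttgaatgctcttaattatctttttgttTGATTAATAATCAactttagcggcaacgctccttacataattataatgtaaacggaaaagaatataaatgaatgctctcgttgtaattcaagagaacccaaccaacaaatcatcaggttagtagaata

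**Figure D3:**
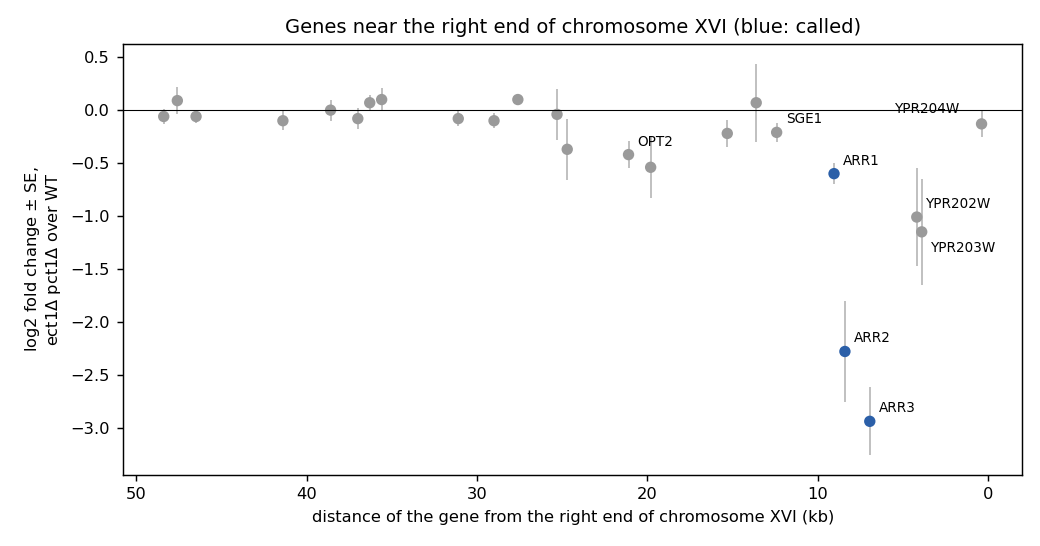
Points are the genes tested in the last stretch of the right arm of chromosome XVI, placed by their distance in kb from the chromosome end, with the log2 fold change of ect1Δ pct1Δ over WT ± SE (3 libraries each). ARR3 and ARR2 (blue) are the lowest points, ARR1 (blue) sits at -0.60 with a short error bar, and YPR202W and YPR203W beside them were negative with standard errors of 0.46 and 0.50.

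The genes around the cluster were lower in value but not called. YPR202W, on the side of the chromosome end, had 1.45 CPM in ect1Δ pct1Δ and 2.67 CPM in WT, a log2 fold change of -1.01 ± 0.46 (edgeR, adjusted p = 0.734). SGE1, a drug exporter gene on the other side, had -0.21 ± 0.09 (edgeR, adjusted p = 0.65). Over the whole genome, 66 tested genes lay within 10 kb of a chromosome end, with 1 called higher (IMD2) and 3 called lower (the ARR genes), against 0.428% called of all genes tested. The groups did not overlap for 25.8% of them, against 10.6% of all genes tested. Their median log2 fold change was -0.01, against 0.00 for all genes tested, so they had no common direction. Values near the ends were scattered, with a median absolute log2 fold change of 0.23 and a median SE of 0.23.

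IMD2, an inosine monophosphate dehydrogenase that commits purines to guanine nucleotides, rose. It had 155, 157 and 152 CPM in ect1Δ pct1Δ, against 90.9, 90.7 and 87.0 CPM in WT. The replicates of each group were tight and far apart, and the log2 fold change was 0.79 ± 0.06 (edgeR, adjusted p = 1.74e-07). In cpt1Δ ept1Δ it had 110.7, 104 and 107 CPM, between both groups, and the strains differed by 0.53 ± 0.06 (edgeR, adjusted p = 2.25e-05). IMD2 shares most of its sequence with IMD1, IMD3 and IMD4, so reads may be split between copies; how multiple matches were counted was not stated in the sources used here. IMD1 had a log2 fold change of -0.26, the lowest value in the list of guanine nucleotide synthesis, and IMD4 had -0.04 ± 0.05. Of the 9 members of this list that were tested, IMD2 alone was called, and the list's median log2 fold change was -0.04. GMP synthetase, GUA1, stood at -0.07 ± 0.05, and HPT1, which salvages guanine, at -0.04 ± 0.05.

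Of 15 genes of pyrimidine and CTP synthesis, the route that supplies the substrate of Pct1 and Ect1, URA1 alone was called. URA1, the dihydroorotate dehydrogenase, had 352, 343 and 360.3 CPM in ect1Δ pct1Δ, against 428, 414 and 425 CPM in WT, with no overlap. Its log2 fold change was -0.27 ± 0.05 (edgeR, adjusted p = 0.0172), and the call was lost without ect1Δ pct1Δ replicate 1 or 2 or WT replicate 1 and in the fit to 6 libraries, with an adjusted p of up to 0.109. URA3 and URA4 had -0.13 ± 0.07 and -0.12 ± 0.06 without being called. YNK1, the nucleoside diphosphate kinase that makes CTP from CDP, went the other way, with 0.18 ± 0.08 (edgeR, adjusted p = 0.671). The list's median was -0.07, and -0.03 without ect1Δ pct1Δ replicate 1. Of 14 genes of purine synthesis none was called by edgeR, DESeq2 or limma, and 3 had an unadjusted p below 0.05 and a negative value (21.4%, against 2.43% of all genes tested). Their median was also -0.07, and -0.04 without ect1Δ pct1Δ replicate 3, with -0.14 ± 0.06 for ADE17 and -0.12 ± 0.05 for ADE6.

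ZRT1, which takes up zinc with high affinity, was lower, at 54.2% of WT. It had 43.7, 47.6 and 42.8 CPM in ect1Δ pct1Δ, against 78.9, 87.4 and 83.2 CPM in WT. The groups were well apart, with a log2 fold change of -0.88 ± 0.13 (edgeR, adjusted p = 0.00121). Of 18 genes of the Zap1 zinc regulon and of zinc transport it was the only one called, and the list's median log2 fold change was 0.01. ZAP1, the zinc-responsive activator itself, had -0.17 ± 0.10, the low-affinity iron and zinc transporter FET4 0.19 ± 0.07, and ADH4, next to ZRT1 on the chromosome, 0.02 ± 0.09. The highest value of the list was 0.84 for IZH4, with no call and no unadjusted p below 0.05. The promoter of ZRT1 is shown with the zinc-responsive element that Zap1 binds in capitals (VII:20728-20977, plus strand, RefSeq build R64, ending at the base before the start codon). This element, searched on both strands, occurred in 5 of the 5984 windows (0.0836%).
ZRT1 promoter: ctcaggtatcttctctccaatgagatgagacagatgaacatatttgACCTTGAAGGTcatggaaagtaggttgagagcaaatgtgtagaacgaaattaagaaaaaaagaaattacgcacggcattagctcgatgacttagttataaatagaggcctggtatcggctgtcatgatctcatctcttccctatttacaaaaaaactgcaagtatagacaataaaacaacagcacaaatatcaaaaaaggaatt

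The remaining genes of the Kennedy pathway were not called. Choline kinase CKI1 had 98.3 ± 0.576 CPM in ect1Δ pct1Δ and 99.7 ± 7.28 CPM in WT (mean ± SD, n = 3 each here and below), and ethanolamine kinase EKI1 had 65.2 ± 2.35 CPM in ect1Δ pct1Δ and 69.2 ± 6.31 CPM in WT. The transferases that would use the missing products also lay within the spread of WT: CPT1 had a log2 fold change of -0.06 ± 0.06, and EPT1 had 149.6 ± 6.01 CPM in ect1Δ pct1Δ and 150.3 ± 8.36 CPM in WT. The choline transporter HNM1 had a log2 fold change of -0.02 ± 0.05. Of these 5 genes edgeR, DESeq2 and limma called none, and none had an unadjusted p below 0.05.

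None of the 11 genes of the CDP-diacylglycerol route was called by any of these tools, and none had an unadjusted p below 0.05. Their log2 fold changes ran from -0.10 ± 0.07 for PSD2, the phosphatidylserine decarboxylase of the endosome, to 0.19 ± 0.11 for PGS1, which makes the precursor of cardiolipin. CHO1, the phosphatidylserine synthase, had 461 ± 10.3 CPM in ect1Δ pct1Δ and 447 ± 36.7 CPM in WT. The methyltransferase CHO2 had 605 ± 20.4 CPM in ect1Δ pct1Δ and 604 ± 29.5 CPM in WT, and OPI3, the methyltransferase of the last steps, had 678 ± 30.8 CPM in ect1Δ pct1Δ and 636 ± 46.1 CPM in WT. With standard errors of 0.06 to 0.07 on the log2 scale for these 3 genes, these are precise measurements of levels near WT. CDS1, which makes CDP-diacylglycerol, had a log2 fold change of -0.06 ± 0.06, its mitochondrial counterpart TAM41 0.16 ± 0.09, the phosphatidylinositol synthase PIS1 0.06 ± 0.06 and PSD1 -0.03 ± 0.07. On the branch to cardiolipin, GEP4 had -0.02 ± 0.10 and the cardiolipin synthase CRD1 0.12 ± 0.10. Of 9 genes of inositol synthesis and its regulators none was called by edgeR, DESeq2 or limma. An unadjusted p below 0.05 with a higher level was found for 1 of them (11.1%, against 4.14% of all genes tested). INO1, the inositol phosphate synthase whose level follows Opi1, was variable, with 91.4 ± 11.6 CPM in ect1Δ pct1Δ and 113 ± 17.2 CPM in WT and a log2 fold change of -0.30 ± 0.19. INO4 had 0.22 ± 0.10, INO2 -0.04 ± 0.11, OPI1 0.11 ± 0.07 and SCS2, which holds Opi1 at the ER, -0.03 ± 0.06. The inositol monophosphatases INM1 and INM2 had 0.12 ± 0.08 and -0.02 ± 0.11, and the inositol transporters ITR1 and ITR2 0.04 ± 0.06 and 0.03 ± 0.06. Of 16 enzymes of phosphatidate and diacylglycerol metabolism, 2 had an unadjusted p below 0.05 and a higher level (12.5%, against 4.14% of all genes tested). Such a p with a lower level was found for 1 (6.25%, against 2.43%). The values ran from -0.31 for the sterol acyltransferase ARE1 to 0.14 for GPT2, and none of the 16 was called by these tools. Nor was any of 11 genes of phospholipid deacylation or of 8 of aminophospholipid flippases called by these tools, and none of them had an unadjusted p below 0.05.

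The lipid genes that rose act on fatty acids and ceramide. FAA1, the main acyl-CoA synthetase that activates long-chain fatty acids from outside, had 336, 304 and 308 CPM in ect1Δ pct1Δ, against 256, 264 and 239 CPM in WT. Its log2 fold change was 0.32 ± 0.06 (edgeR, adjusted p = 0.0138), and the groups did not overlap. It was the only one of 15 genes of fatty acid synthesis and desaturation to be called, with a list median of 0.00, and the call was lost without ect1Δ pct1Δ replicate 1 or WT replicate 1 and in limma (adjusted p up to 0.102 over all alternatives that lost it). EEB1, an acyltransferase that forms medium-chain ethyl esters, had 860.3, 777 and 762 CPM in ect1Δ pct1Δ, against 511, 562 and 561 CPM in WT. All deletion libraries were well above all WT libraries, with a log2 fold change of 0.56 ± 0.07 (edgeR, adjusted p = 8.60e-05). Of the 5 other ester genes none was called: the EEB1 paralogue EHT1 had 0.08 ± 0.05 and the alcohol acetyltransferase ATF2 -0.24 ± 0.07 (edgeR, adjusted p = 0.308).

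YPC1, an alkaline ceramidase, had 63.2, 66.2 and 65.5 CPM in ect1Δ pct1Δ, against 52.0, 48.5 and 53.1 CPM in WT. The change was small, 0.34 ± 0.07, and lay close to the threshold (edgeR, adjusted p = 0.0466); it was lost in 13 of 19 alternatives, including the removal of any single library other than WT replicate 3. Its relative YDC1 had 0.21 ± 0.07 (edgeR, adjusted p = 0.385), and YPC1 was the only call among 25 sphingolipid genes. No gene of ergosterol synthesis was called by edgeR, DESeq2 or limma, yet all 27 had a negative log2 fold change, also with either other scaling of the libraries. Values lay between -0.17 for ERG10 and -0.01 for IDI1, with a median of -0.11 against 0.00 for all genes tested. An unadjusted p below 0.05 with a lower level was found for 5 of the 27 (18.5%), against 2.43% of all genes tested. ERG3, the sterol C-5 desaturase, had 903 ± 26.4 CPM in ect1Δ pct1Δ and 998 ± 37.5 CPM in WT, and MVD1, the mevalonate pyrophosphate decarboxylase, had 378 ± 20.7 CPM in ect1Δ pct1Δ and 415 ± 17.5 CPM in WT.

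Membrane and stress genes made up a further share of the genes that rose. HSP30, a plasma membrane heat shock protein that restrains the proton pump Pma1, had 112, 114 and 121 CPM in ect1Δ pct1Δ, against 72.5, 85.2 and 65.4 CPM in WT. The groups did not overlap, and the log2 fold change was 0.64 ± 0.08 (edgeR, adjusted p = 1.64e-04). YRO2, a membrane protein of the same family whose gene is a target of the weak-acid activator Haa1, had 213, 218 and 243 CPM in ect1Δ pct1Δ. In WT it had 120.1 CPM in replicate 1, 186 CPM in replicate 2 and 122 CPM in replicate 3, so replicate 2 came near the lowest deletion library. Its log2 fold change was 0.66 ± 0.13 (edgeR, adjusted p = 0.0236), and the call was lost without ect1Δ pct1Δ replicate 1 or 3 or WT replicate 1, and in DESeq2 and limma (adjusted p up to 0.22). PMA1 itself was not called. Among 9 genes of plasma membrane stress and the proton pump, HSP30 and YRO2 were called higher, against 0.263% of all genes tested. With an unadjusted p below 0.05 and a higher level there were 4 (44.4%, against 4.14% of all genes tested). The list's median was 0.13 and ran from 0.07 to 0.17 over the alternatives. The small regulatory proteins PMP3 and PMP1 had 0.20 ± 0.06 and 0.15 ± 0.06 without passing.

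YGP1, a secreted glycoprotein made on nutrient limitation and another target of Haa1, had 49.4, 50.5 and 66.4 CPM in ect1Δ pct1Δ, against 39.6, 40.8 and 31.2 CPM in WT. Replicate 3 of the deletion strain was the highest and replicate 3 of WT the lowest, and leaving out either ended the call (log2 fold change 0.55 ± 0.11, edgeR, adjusted p = 0.0352). It was also lost without WT replicate 1 or cpt1Δ ept1Δ replicate 2 or 3, without TMM factors, in the fit to 6 libraries and in limma, with an adjusted p of up to 0.229. Of 11 Haa1 targets, YRO2 and YGP1 were called (adjusted p below 0.05), 7 had an unadjusted p below 0.05 and a higher level (63.6%, against 4.14% of all genes tested), and the median log2 fold change was 0.26. PHM8, a phosphatase of the same list, had 0.52 ± 0.12 and just missed the threshold (edgeR, adjusted p = 0.0574). Of 33 targets of the general stress activator Msn2, YGP1 alone was called, 12 had an unadjusted p below 0.05 and a higher level (36.4%), and 30 had a positive value, with a median of 0.21. DDR2, a small stress-induced protein, had 9.66 ± 0.969 CPM in ect1Δ pct1Δ and 5.92 ± 0.841 CPM in WT, and HSP42, a small chaperone, had 43.1 ± 2.27 CPM in ect1Δ pct1Δ and 34.02 ± 5.04 CPM in WT; neither was called. The 19 genes of cytosolic Hsp70 and Hsp90 chaperones had a median of -0.04 with no call by edgeR, DESeq2 or limma, and 3 with an unadjusted p below 0.05 and a lower level (15.8%, against 2.43% of all genes tested), among them SSA2 with -0.21 ± 0.06.

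The core of the stress response element that Msn2 binds, AGGGG on either strand, was present in the promoter windows of 8 of the 16 genes called higher and of 0 of the 9 protein-coding genes called lower, against 21.7% of all 5984 windows. The 8 were YGR201C, YDL057W, STF2, YNL134C, TDH1, FAA1, YER053C-A and YPC1. This is a description of letters in short windows and not of binding. CCAAT, the core of the Hap2/3/4 site, occurred in 6 of the 16 and in 3 of the 9, against 43.3% of all windows. CATGTG, the core of the Ino2-Ino4 site, occurred in the window of FMP48 alone among the called genes, against 6.92% of all windows.

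Other genes that rose encode a wall protein, transporters and enzymes. CWP2, an abundant cell wall mannoprotein, had 998, 1112 and 962 CPM in ect1Δ pct1Δ, against 823, 833 and 819.8 CPM in WT, with no overlap. Its log2 fold change was 0.31 ± 0.06 (edgeR, adjusted p = 0.0138), lost without ect1Δ pct1Δ replicate 2 or WT replicate 1 and in the fit to 6 libraries (adjusted p up to 0.0815), and it was the only call among 29 cell wall genes, whose median was 0.00. TPO4, a plasma membrane polyamine exporter, had 327, 248 and 280.3 CPM in ect1Δ pct1Δ, against 220.3, 226 and 192 CPM in WT. It had a log2 fold change of 0.42 ± 0.09 (edgeR, adjusted p = 0.0343) and was lost without ect1Δ pct1Δ replicate 1 or 3 or WT replicate 1 or 3, without TMM factors, in the fit to 6 libraries and in limma (adjusted p up to 0.222). FMP48, a mitochondrial protein of unknown function, was 1.58-fold higher, with 36.5 ± 2.07 CPM in ect1Δ pct1Δ and 23.0 ± 3.09 CPM in WT (edgeR, adjusted p = 0.00407). YNL134C, similar to dehydrogenases, was 1.28-fold higher, with 224 ± 8.29 CPM in ect1Δ pct1Δ and 175 ± 1.42 CPM in WT (edgeR, adjusted p = 0.00214), and was the only call among 23 genes of oxidative stress and Yap1.

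PDR5, the main multidrug exporter of the plasma membrane, fell. It had 198, 181 and 184 CPM in ect1Δ pct1Δ, against 257, 226 and 220.4 CPM in WT. The log2 fold change was -0.32 ± 0.07 (edgeR, adjusted p = 0.0322), and it was lost without ect1Δ pct1Δ replicate 2 or 3, cpt1Δ ept1Δ replicate 2 or WT replicate 1, without TMM factors, in the fit to 6 libraries and in limma (adjusted p up to 0.249). It was the only call among 16 genes of the Pdr1 and Pdr3 regulon, where SNQ2 and YOR1, other exporters that Pdr1 controls, had -0.17 ± 0.08 and -0.16 ± 0.07. The perfect forms of the Pdr1 site that were searched, TCCGCGGA and TCCGTGGA, were found in 0.602% of windows. Neither was in the short window around the start of PDR5 or of any other called gene. Sequence further upstream was not searched, so whether PDR5 has a Pdr1 site there was not tested.

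KAR2, the Hsp70 chaperone of the ER lumen and a standard reporter of the unfolded protein response, was lower. It had 525, 564 and 534 CPM in ect1Δ pct1Δ, against 630.4, 655 and 663 CPM in WT, so the groups did not overlap. The log2 fold change was -0.26 ± 0.05 (edgeR, adjusted p = 0.0322), and it was lost without ect1Δ pct1Δ replicate 1 or 3, cpt1Δ ept1Δ replicate 2 or WT replicate 1 or 2, and in the fit to 6 libraries (adjusted p up to 0.22). Of 26 targets of the unfolded protein response, KAR2 alone was called, 21 had a negative value, 5 of them with an unadjusted p below 0.05 (19.2%, against 2.43% of all genes tested), and the median was -0.07. The disulfide isomerase EUG1 had 37.8 ± 1.51 CPM in ect1Δ pct1Δ and 44.9 ± 2.99 CPM in WT, and the oxidase ERO1 had 131 ± 4.66 CPM in ect1Δ pct1Δ and 147 ± 6.34 CPM in WT. WSC4, a translocation gene, had a positive value, 0.28 ± 0.08 (edgeR, adjusted p = 0.285). The KAR2 promoter is shown with the only match to CAGCGTG, the core of the Hac1 site, in capitals (X:381077-381326, plus strand, RefSeq build R64, ending at the base before the start codon). These letters, searched on both strands, were in 69 of the 5984 windows (1.15%).
KAR2 promoter: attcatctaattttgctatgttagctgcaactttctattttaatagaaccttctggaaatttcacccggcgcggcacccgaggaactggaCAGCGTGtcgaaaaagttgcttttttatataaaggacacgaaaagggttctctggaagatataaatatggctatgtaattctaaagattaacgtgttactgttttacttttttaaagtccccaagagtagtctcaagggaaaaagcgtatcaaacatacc

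In carbon metabolism, TDH1 rose and HXT4 fell. TDH1, the minor glyceraldehyde-3-phosphate dehydrogenase that is raised in resting and stressed cells, had 317, 374 and 359.8 CPM in ect1Δ pct1Δ, against 209, 244 and 238 CPM in WT. The groups did not overlap, and the log2 fold change was 0.61 ± 0.10 (edgeR, adjusted p = 0.00404). TDH1 is close in sequence to TDH2 and TDH3, so some of its reads may be theirs. It was the only call among 24 genes of glycolysis and fermentation, whose median was -0.02, while glucokinase GLK1 had 0.27 ± 0.10 without passing. HXT4, a hexose transporter with close relatives, had 279, 303 and 309.8 CPM in ect1Δ pct1Δ, against 350.4, 364 and 354 CPM in WT. This difference of -0.26 ± 0.06 (edgeR, adjusted p = 0.0461) was lost in 12 of 19 alternatives. These include the removal of any 1 library other than WT replicate 3 or cpt1Δ ept1Δ replicate 1. Among the 13 other hexose transporters and sensors none was called, and HXT3, a low-affinity transporter, had 0.14 ± 0.05. Of all 14, 9 were positive, and 4 had an unadjusted p below 0.05 and a higher level (28.6%, against 4.14% of all genes tested). Their median was 0.06 and ran from -0.03 to 0.14 over the alternatives.

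The nuclear genes of complexes II to IV and of ATP synthase lay slightly above WT as groups, with no single call by edgeR, DESeq2 or limma. Positive log2 fold changes were found for 4 of 4 tested genes of complex II, 9 of 9 of complex III and cytochrome c, 10 of 10 of cytochrome c oxidase and 16 of 16 of ATP synthase, also with either other scaling. The medians were 0.17, 0.16, 0.17 and 0.15, against 0.00 for all genes tested, of which 51.2% were positive. An unadjusted p below 0.05 with a higher level was found for 3, 5, 6 and 10 of them, against 4.14% of all genes tested. Without WT replicate 3, edgeR called 1 gene of cytochrome c oxidase and 1 of ATP synthase. The mean log2 level of cytochrome c oxidase relative to WT was 0.22, 0.27 and 0.14 in ect1Δ pct1Δ, against -0.03, -0.12 and 0.15 in WT. The groups thus overlapped for this list. For ATP synthase the levels were 0.13, 0.21 and 0.09 in ect1Δ pct1Δ, against -0.03, -0.05 and 0.08 in WT, so they nearly met. For complexes II and III the groups did not overlap. RIP1, the Rieske iron-sulfur protein, had 341 ± 12.3 CPM in ect1Δ pct1Δ and 297 ± 3.11 CPM in WT, and ATP16, the delta subunit of ATP synthase, had 226 ± 11.3 CPM in ect1Δ pct1Δ and 197 ± 8.69 CPM in WT. The 7 respiratory chain dehydrogenases, outside these complexes, had a median of 0.04 that ran from -0.01 to 0.15 over the alternatives. The highest of them, CYB2, the lactate dehydrogenase of the intermembrane space, had 62.1 ± 3.55 CPM in ect1Δ pct1Δ and 45.4 ± 2.79 CPM in WT, a log2 fold change of 0.45 ± 0.10 that just missed the threshold in edgeR (adjusted p = 0.0604) and passed it in DESeq2. HAP3, a subunit of the respiratory activator, had 0.37 ± 0.11 and HAP4 0.18 ± 0.11, and citrate synthase CIT1 had 0.26 ± 0.07, none of them called. HAP3 and CIT1 were the highest members of their lists. For 12 transcription factors of respiration and retrograde signalling the median was 0.04, with 4 negative, and it ran from -0.05 to 0.10 over the alternatives. For 19 genes of the tricarboxylic acid cycle it was 0.05, with 6 negative. The subunits encoded in mitochondria were not tested, since their RNAs gave 0, 16 and 8 counts in all in ect1Δ pct1Δ and 4, 12 and 15 in WT. Of the nuclear genes of complex III and cytochrome c, QCR8 and CYC7 were too low to be tested. QCR8 had 1 to 11 counts and CYC7 1 to 10 counts in any library of the series.

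**Figure D4:**
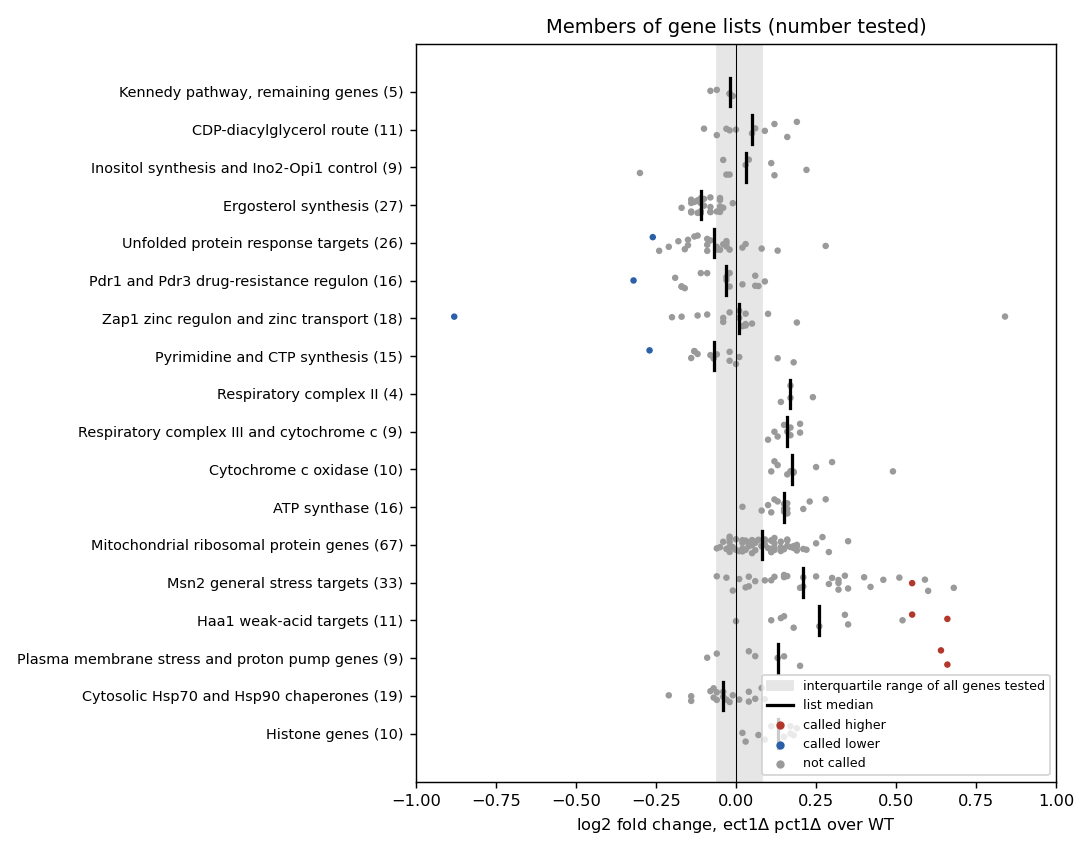
Each point is a tested member of a gene list, placed by its log2 fold change in ect1Δ pct1Δ over WT (3 libraries each); the thick line is the list's median, and the grey band is the interquartile range of all genes tested. The lists of complexes II to IV and ATP synthase, the Msn2 and the Haa1 targets have medians of 0.15 to 0.26, ergosterol synthesis a median of -0.11, and few members are called.

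RDN5-1, an annotated copy of the repeated 5S ribosomal RNA gene on chromosome XII, had 4.2, 4.9 and 4.89 CPM in ect1Δ pct1Δ, against 9.97, 13.3 and 11.6 CPM in WT. Its log2 fold change was -1.29 ± 0.19 (edgeR, adjusted p = 0.00121). The 5S genes are identical copies without a poly(A) tail, so this value rests on reads that passed the oligo(dT) selection and were assigned among copies in a way that the sources used here do not state. Mating type markers were those of a cells in both groups. The a-factor gene MFA1 had 1433 ± 95.2 FPKM in ect1Δ pct1Δ and 1477 ± 212 FPKM in WT, and the alpha-factor gene MF(ALPHA)1 had 5.19 ± 1.04 FPKM in ect1Δ pct1Δ and 4.9 ± 0.569 FPKM in WT. None of the 7 a-cell and 4 alpha-cell markers was called by edgeR, DESeq2 or limma or had an unadjusted p below 0.05. Of 11 tested stationary phase markers 2 were called higher, against 0.263% of all genes tested. They were STF2, which lies beside the deleted ECT1, and YGP1, whose call was lost in 10 of 19 alternatives. Of the 11, 7 had a positive value and 4 a negative one. SPG1, SPG4, RGI2 and SIP18 were too low to be tested, with 0 to 12 counts in any library. The median of the 11 was 0.34, but 0.17 without ect1Δ pct1Δ replicate 2, 0.22 without WT replicate 3, and 0.01 over the members with at least 50 counts in every group mean.

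The contrast with cpt1Δ ept1Δ shows which called genes also moved when the next step of the pathway was removed. Both strains are compared with the same 3 WT libraries, so their log2 fold changes are not independent of each other. YDL057W had a log2 fold change over WT of 1.84 ± 0.16 in ect1Δ pct1Δ and of 1.67 ± 0.16 in cpt1Δ ept1Δ, where it had 18.4, 19.0 and 19.5 CPM. ZRT1 had -0.88 ± 0.13 in ect1Δ pct1Δ and -0.92 ± 0.12 in cpt1Δ ept1Δ. KAR2 had -0.26 ± 0.05 in ect1Δ pct1Δ and -0.35 ± 0.05 in cpt1Δ ept1Δ, and EEB1 had 0.56 ± 0.07 in ect1Δ pct1Δ and 0.37 ± 0.06 in cpt1Δ ept1Δ. These 4 genes were called in both strains, out of 6 called in cpt1Δ ept1Δ (0.0987% of the genes tested). The direct test between the strains did not separate them, with differences of 0.16 ± 0.13 for YDL057W, 0.04 ± 0.13 for ZRT1, 0.09 ± 0.05 for KAR2 and 0.18 ± 0.06 for EEB1.

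The strains themselves differed at 8 genes beyond the 4 deleted ones, or 0.132% of 6079 (edgeR, adjusted p below 0.05), of which 7 are among the 26. YBR242W differed most in p, with 86.8, 86.3 and 90.9 CPM in cpt1Δ ept1Δ and a difference of -1.67 ± 0.08 (edgeR, adjusted p = 1.23e-10). The others were YGR201C, STF2, IMD2, ARR3 and ARR1, given above, and YNL134C with 0.29 ± 0.05 (edgeR, adjusted p = 0.0237). HSP30 fell just short, with 0.37 ± 0.08 (edgeR, adjusted p = 0.0573). For FAA1, CWP2 and YER053C-A the values over WT were 0.32 ± 0.06, 0.31 ± 0.06 and 0.32 ± 0.06 in ect1Δ pct1Δ, beside 0.25 ± 0.06, 0.28 ± 0.06 and 0.28 ± 0.06 in cpt1Δ ept1Δ, which did not pass there. The difference between the strains was 0.07 ± 0.06, 0.03 ± 0.06 and 0.04 ± 0.06 and was not called for any of these 3. List medians over WT can be read side by side in the same way. For complex II, complex III, cytochrome c oxidase and ATP synthase they were 0.17, 0.16, 0.17 and 0.15 in ect1Δ pct1Δ, beside 0.20, 0.11, 0.11 and 0.08 in cpt1Δ ept1Δ. For Haa1 targets the median was 0.26 in ect1Δ pct1Δ and 0.06 in cpt1Δ ept1Δ, for Msn2 targets 0.21 in ect1Δ pct1Δ and 0.06 in cpt1Δ ept1Δ, and for ergosterol synthesis -0.11 in ect1Δ pct1Δ and -0.04 in cpt1Δ ept1Δ. These differences between lists were not tested.

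**Figure D5:**
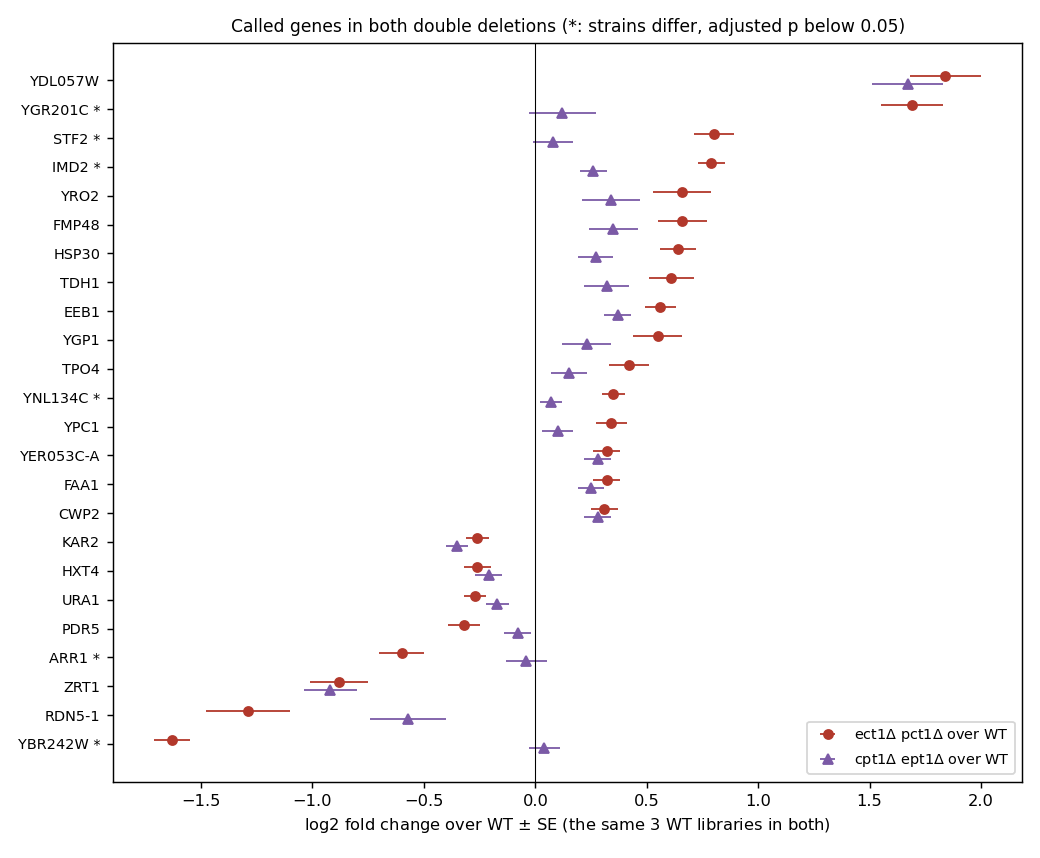
Log2 fold change ± SE over the same 3 WT libraries for 24 of the called genes, in ect1Δ pct1Δ (circles) and cpt1Δ ept1Δ (triangles), 3 libraries each. YDL057W, ZRT1 and KAR2 lie close together in both strains, while YBR242W, YGR201C, STF2, IMD2, ARR1 and YNL134C, marked with a star, differed between them; ARR2 and ARR3 are left out for scale.

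Just below the threshold, the 10 uncalled genes with the smallest p had adjusted p-values of 0.0574 to 0.121 in edgeR. HSP31, a methylglyoxalase of the stress response, had 172 ± 7.94 CPM in ect1Δ pct1Δ and 139 ± 11.4 CPM in WT, and YGR035C, of unknown function, had a log2 fold change of 0.95 ± 0.21. NCE103, the carbonic anhydrase, had 101 CPM in ect1Δ pct1Δ and 139 CPM in WT, a log2 fold change of -0.47 ± 0.11. The other lower gene, YFL067W, of unknown function, had -1.16 ± 0.27. COS1 had 0.36 ± 0.08, RTC3 0.47 ± 0.11, CIP1 0.40 ± 0.10 and NCE102, a protein of the eisosome, 0.24 ± 0.06. Of these 10 genes 8 had positive values, PHM8 and CYB2 among them. Of the 26 called genes, 14 passed in every one of 19 alternatives that gave a value: YBR242W, IMD2, YGR201C, YDL057W, STF2, ARR3, EEB1, HSP30, ZRT1, RDN5-1, YNL134C, TDH1, FMP48 and ARR1.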

How the data were processed

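Per gene and library, the authors deposited a count that was not normalised and an FPKM. Counts are whole, and their totals differ between libraries. Per the submitters' processing notes, which give no role or order, HTSeq 0.6.1 and HISAT2 2.2.1 were used with build R64. Not given in the sources used here are the strandedness of counting and the handling of multiple matches. The authors' FPKM, so named per the file headers, is the count scaled by library total and exonic length (checked on 64098 values). Gene lengths and positions come from the same deposited table. Values of 4 of its 7126 lines had been removed, and 6 columns of 3 libraries without a matching sample were not used.

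The 9 libraries were grouped by title and fitted together with edgeR 4.0.16 (R 4.3.3), with TMM, filterByExpr, glmQLFit and glmQLFTest, a mean per group and no covariate. The filter removed 1039 genes, and the biological coefficient of variation was 6.24%. P-values are two-sided and were adjusted by Benjamini and Hochberg. The SE is the log2 fold change divided by the square root of F. No pair of replicates was alike within counting noise. Alternatives used DESeq2 1.42.0, limma 3.58.1 on log2(FPKM + 1) and log2(FPKM + 0.1), other scalings and filters, a replicate block and the removal of single libraries. The scripts were tested on simulated data.

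Members and the 55 gene lists were chosen with earlier results of these data known. Lists are described by counts and medians. The rule for named genes takes the deleted genes, every called gene, the 10 uncalled genes of smallest p, all genes of the Kennedy, CDP-diacylglycerol and inositol lists, and 3 in each direction between the strains, all of which are named. It also takes up to 4 of smallest p in every other list and direct neighbours, of which the text names only some, picked with their values known. The extremes of lists, members too low to test, YPR202W, YGL101W, IMD3, TDH2 and TDH3 were named beyond it after values were seen. Sequences come from RefSeq build R64, whose start and end matched those of 6033 of 6045 shared identifiers. PAH1 and DGK1, which the series' design text names, are not described here.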

Additional observations from a re-analysis of the deposited data

How the results depend on the processing

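Counts of called genes were within 1.5 times those given in the report under DESeq2, both other scalings, both other filters, limma with either pseudocount and the replicate block, with these exceptions. With 6 libraries only, 6 genes were lower. Without WT replicate 3 and ect1Δ pct1Δ replicate 2 together, an alternative chosen after seeing the data, 25 genes were higher and 19 differed between the strains. Leaving out single libraries gave 15 to 38 called genes, 9 to 25 higher, 6 to 13 lower and 6 to 9 between the strains; the 6 lower came without WT replicate 1, and equally without cpt1Δ ept1Δ replicate 2 or without replicate 3 of ect1Δ pct1Δ. The cause was not tested. Of the 26 called genes, 12 lost their call in at least 1 of 19 alternatives, and none changed direction.

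Deviations of same-numbered ect1Δ pct1Δ and WT libraries from their group means had correlations of 0.264, -0.132 and -0.099. Those of unlike number ran from -0.306 to 0.365. With 3 libraries a group, these values cannot decide whether the numbers pair the libraries. With the number as a replicate block 21 genes were called, 13 higher and 8 lower, and 7 between the strains; YER053C-A, KAR2, TPO4, YGP1, ARR2, HXT4 and YPC1 lost their call.

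Depth limits genes under 5 FPKM in WT, where the median SE was 0.32, and ARR2 and ARR3 rest on few counts. The list medians moved by at most the spread between libraries in 926 of 1026 recalculations.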

Other observations

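Some gene groups that the report does not describe are given here. Of 11 glyoxylate cycle and gluconeogenesis genes 9 were positive and none was called. Their median was 0.18 and ran from 0.10 to 0.26 over the alternatives. Their mean log2 level relative to WT was 0.17, 0.08 and 0.31 in ect1Δ pct1Δ, against 0.01, 0.10 and -0.11 in WT. The groups thus overlapped. Of 14 sporulation markers 10 were positive and none was called, with a median of 0.12 that ran from 0.01 to 0.20. With an unadjusted p below 0.05 there was 1 higher (7.14%, against 4.14% of all genes tested). There was also 1 lower (7.14%, against 2.43%), IME2 with -0.50 ± 0.19. Their mean log2 level relative to WT was 0.23, -0.02 and 0.16 in ect1Δ pct1Δ, against 0.01, -0.03 and 0.02 in WT, so the groups overlapped. All 10 histone genes had a positive log2 fold change, with a median of 0.13, also with either other scaling; HHF1 had 953 ± 22.8 CPM in ect1Δ pct1Δ and 835 ± 66.3 CPM in WT. None was called by edgeR, DESeq2 or limma, 5 had an unadjusted p below 0.05 and a higher level (50%, against 4.14% of all genes tested), and 3 were called by edgeR once WT replicate 3 was left out. WT replicate 3 stood at the level of the deletion strain: the summed histone level was 8483, 8932 and 8640 CPM in ect1Δ pct1Δ, against 7584, 7563 and 8641 CPM in WT. Of 67 mitochondrial ribosomal protein genes 55 were positive, with a median of 0.08, no call by these tools and 11 with an unadjusted p below 0.05 and a higher level (16.4%). The mean log2 level relative to WT was 0.01, 0.15 and 0.09 in ect1Δ pct1Δ, against -0.02, -0.07 and 0.09 in WT, so the groups overlapped. Without WT replicate 2 the median was 0.05, with 45 positive. Without ect1Δ pct1Δ replicate 2 it was also 0.05, with 47 positive. The 138 cytosolic ribosomal protein genes had a median of 0.01, no call by these tools and no unadjusted p below 0.05. Of 12 pheromone response genes 10 were negative, with a median of -0.11 and no call by these tools. An unadjusted p below 0.05 with a lower level was found for 1 of them (8.33%, against 2.43% of all genes tested). The median was -0.04 without WT replicate 1 and -0.05 without ect1Δ pct1Δ replicate 2. AGA1, an agglutinin subunit, had 45.8 ± 5.22 CPM in ect1Δ pct1Δ and 55.1 ± 9.35 CPM in WT. The G1 cyclin CLN1 had 96.0 ± 9.61 CPM in ect1Δ pct1Δ and 77.3 ± 4.94 CPM in WT, a log2 fold change of 0.30 ± 0.08 that did not pass (edgeR, adjusted p = 0.24). The peroxisomal oxidase POX1 had 10.8 ± 1.12 CPM in ect1Δ pct1Δ and 7.35 ± 0.754 CPM in WT, with 0.54 ± 0.16 (edgeR, adjusted p = 0.344).

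RNAs of mitochondrially encoded subunits and of VAR1 gave 6, 3 and 87 counts in all in cpt1Δ ept1Δ replicates 1, 2 and 3, so 1 library held more of them than the others of the series.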
